A study of Mus musculus with 16 samples.

Results

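Ventricles of mouse pups at postnatal day 4 (P04) and postnatal day 9 (P09) were compared across every gene of the small RNA count table, with mRNA fragments, small nucleolar RNAs (snoRNAs), long noncoding RNAs (lncRNAs) and mitochondrial RNAs taken beside miRNAs. The comparison used 8 of the 16 libraries of the series, 4 per day, chosen by the day named in the labels and the column names and by no measured value. All pups were of the strain C57BL/6JOlaHsd, male and female, with no treatment named and standard housing, and each library came from the ventricular tissue of 1 pup. Libraries are named by the number in their column of the table, P04 replicates 1, 3, 4 and 6 and P09 replicates 2, 3, 4 and 5, and values per library are given in that order. Total counts per library were 3336621 to 4478212 at P04 and 3935207 to 5505319 at P09. Levels are given as normalized counts, that is, the count divided by the library's relative effective size. The tissue label was checked against marker genes. All 13 cardiomyocyte markers had counts, with a summed level of 44790 to 53060 normalized counts at P04 and 60950 to 71830 at P09, while 9 skeletal muscle markers summed to 3.75 to 14.1 and 7 liver markers to 2.14 to 11.1. A list of 7 atrial markers stood higher than those, at 156 to 384 at P04 and 186 to 865 at P09. Whether atrial tissue was included was not tested. Xist, the RNA that coats the inactive X chromosome of females, exceeded the sum of 4 Y-linked genes in 2 P04 libraries (replicates 4 and 6) and in 1 P09 library (replicate 3), and the reverse held in the other 2 P04 and 3 P09 libraries.

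In the first days after birth the mouse ventricle exchanges fetal for adult isoforms of its contractile proteins, its cardiomyocytes leave the cell cycle, and oxidation of fatty acids in mitochondria becomes its main source of energy. The kit used here adds a poly(A) tail to any RNA 3' end, so that fragments of mRNA, ribosomal RNA and transfer RNA are read together with miRNAs, the short guides that repress mRNAs through their seed bases. snoRNAs direct the chemical modification of ribosomal RNA and most lie in introns of host genes, and many lncRNAs act in the nucleus, several of them at imprinted loci from which one parental allele is expressed. The counts are 1 number per gene. Where in a gene the reads lay was not analysed here, and a count on a protein-coding gene can stand for mRNA fragments or for any other RNA from that place. The setting for strand is not given in the sources used here, so reads of a gene and of its antisense partner cannot be told apart. In bulk tissue, fewer cells of a type and less RNA per cell cannot be told apart either.

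The miRNA results below turn on a few genes that share a seed or a cluster, and their mature sequences are shown for that reason, from RefSeq (GRCm38.p6), 5′ to 3′, with the seed (bases 2 to 8) in capitals. All 42 miRNA genes called in the comparison had a mature sequence in that table. The first pair below has 1 seed, and so has each of the next 3 pairs. The last 4 belong to the cluster of miR-322 or are called higher. Their seeds differ from one another and from those of the pairs, that of miR-503-5p from the first pair only in its last base. Whether these 4 share a seed with miRNAs not shown was not tested.
miR-322-5p: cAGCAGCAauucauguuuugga
miR-195a-5p: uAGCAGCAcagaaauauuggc
miR-208a-3p: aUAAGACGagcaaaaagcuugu
miR-208b-3p: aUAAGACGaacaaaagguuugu
miR-130a-3p: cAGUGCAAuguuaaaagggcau
miR-130b-3p: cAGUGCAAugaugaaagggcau
miR-500-3p: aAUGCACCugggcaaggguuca
miR-501-3p: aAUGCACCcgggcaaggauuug
miR-351-5p: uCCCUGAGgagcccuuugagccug
miR-503-5p: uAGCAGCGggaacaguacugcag
miR-450b-5p: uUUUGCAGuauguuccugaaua
miR-222-3p: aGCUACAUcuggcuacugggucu
The counts are per precursor gene, so both arms of a miRNA are counted together and a sequence shown here is not itself the thing counted.

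Of 10742 genes tested, 548 (5.1%) were called, of which 150 (1.4%) were upregulated and 398 (3.71%) downregulated at P09, with an adjusted p under 0.01 (edgeR's quasi-likelihood test, Benjamini-Hochberg) and a fold change over 1.8. The classes moved in unequal ways. Of 9553 protein-coding genes 129 were upregulated and 277 downregulated, with a median log2 fold change of 0.02. Among 198 lncRNA genes the counts were 2 and 33, with a median of -0.45, and among 206 miRNA genes they were 2 and 40, with a median of -0.56. None of 165 snoRNA genes was upregulated and 4 were downregulated, with a median of -0.49, and of 27 mitochondrial genes 8 were upregulated and 0 downregulated, with a median of 0.54. For the 0 rises of snoRNAs and the 0 falls of mitochondrial genes, edgeR gave 0 at an unadjusted p under 0.05 with the same fold change, and DESeq2 also called 0. The libraries of the 2 days did not overlap for 1005 genes higher at P09 (9.36%) and for 1039 genes lower at P09 (9.67%).

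These directions are relative to the scaling. TMM factors over all genes put the median of all genes at -0.01. With factors from miRNA genes alone the median of all genes moved by 0.52, and with factors from snoRNA genes alone by 0.55, and calls then split into 1204 upregulated and 105 downregulated or 1156 and 89. The share of falls among all calls was 72.6% with factors from all genes, 8.02% with factors from miRNA genes and 7.15% with those from snoRNA genes. Such factors shift all genes by a nearly constant amount, so the order of the classes was fixed in advance under both. mRNA fragments then had medians of 0.55 and 0.57 and mitochondrial genes of 1.08 and 1.05, while the medians of miRNA genes were -0.01 and -0.06 and those of snoRNA genes 0.01 and 0.01. The medians of mitochondrial RNA and mRNA fragments thus lay above those of small noncoding RNAs whichever factors were used, and where 0 falls depends on the RNA held constant. Without P04 replicate 4, the library with the most miRNA, 259 genes were downregulated in place of 398.

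**Figure D1:**
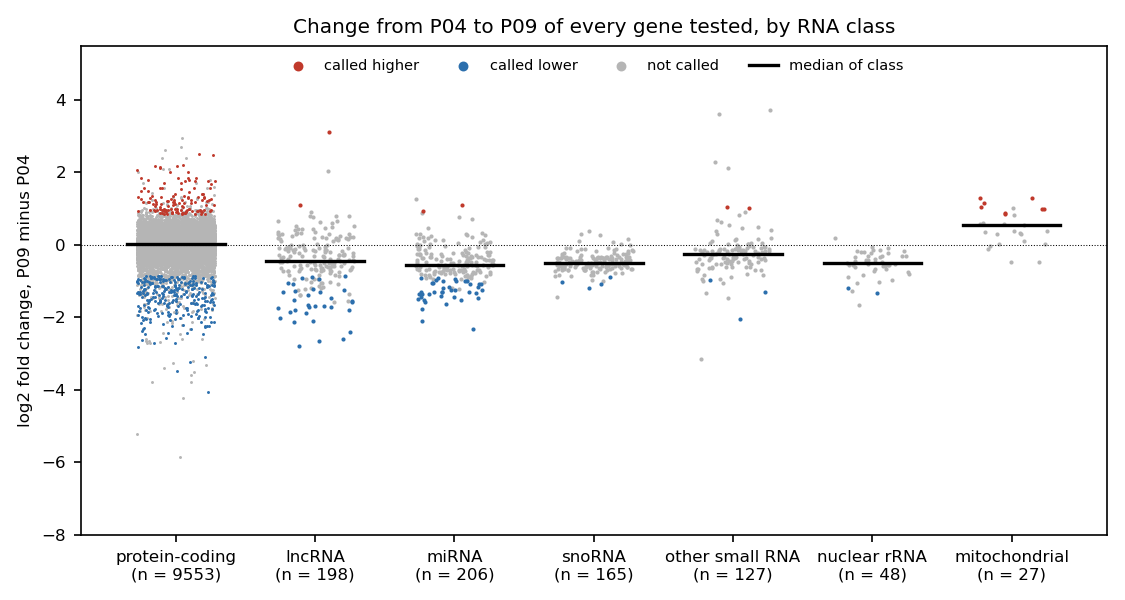
log2 fold change from P04 to P09 (vertical axis) of every gene tested in 7 RNA classes, in columns by class, with red points called higher, blue points called lower, gray points not called and a black line at each class median. Medians stand at 0.02 for protein-coding genes, between -0.45 and -0.56 for lncRNA, miRNA and snoRNA genes and at 0.54 for mitochondrial genes.

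As shares of all counts, the libraries of the days overlapped for each of the 6 classes tested. miRNA genes took 3.00%, 2.90%, 4.54% and 3.58% of the counts in the P04 libraries and 3.13%, 2.26%, 2.53% and 2.45% in the P09 libraries. snoRNA genes took 10.7%, 10.9%, 8.48% and 10.0% at P04 and 6.32%, 7.75%, 7.52% and 8.74% at P09, and the highest P09 library lay above the lowest P04 library. Mean shares of mitochondrial genes were 23.5% ± 2.01 (SD, n = 4) at P04 and 26.3% ± 0.616 at P09, those of lncRNA genes 2.03% ± 0.453 and 1.38% ± 0.468, those of protein-coding genes 17.3% ± 0.967 and 18.2% ± 2.07, and those of nuclear rRNA genes 39.8% ± 1.65 and 40.0% ± 2.2. No class passed a two-sided exact permutation test (smallest p = 0.0571 for snoRNA, adjusted p = 0.129 over the 6 shares), and the smallest p that 4 libraries against 4 allow is 0.0286. P09 replicate 2 had the highest share of protein-coding genes (20.9%) and the lowest of snoRNA genes (6.32%) of the 8 libraries.

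Fetal contractile genes gave the largest fall among the protein-coding genes called. Myh7, the slow myosin heavy chain of the fetal mouse ventricle (chromosome 14, 54970684 to 54994626, GRCm38.p6), stood at 874, 620.3, 667 and 784 in the P04 libraries and 43, 32.8, 42.8 and 58.2 in the P09 libraries. The groups were far apart, the highest P09 library lying at 58.2 and the lowest P04 library at 620.3 (log2 fold change -4.05, SE 0.21, adjusted p = 8.95e-15). Tnni1, the slow skeletal troponin I that the fetal heart uses, stood at 792, 753, 609.9 and 666 in the P04 libraries and 218, 215, 267 and 233 in the P09 libraries (log2 fold change -1.6, SE 0.16, adjusted p = 1.39e-08). Of 15 fetal muscle genes tested, Acta1, the skeletal alpha-actin, was upregulated (log2 fold change 0.99, SE 0.19, adjusted p = 5.16e-04), at 60.5, 58.9, 89 and 85.6 in the P04 libraries and 129.6, 178, 103 and 176 in the P09 libraries, again without overlap. The other 12 were not called, among them the natriuretic peptide gene Nppa (log2 fold change 1.58) and the atrial myosin light chains Myl7 (-0.90) and Myl4 (-0.36). Mhrt, a noncoding RNA antisense to Myh7, had 82.7 normalized counts at P04 and 105 at P09, a log2 fold change of 0.35 that was not called. The falls of Myh7 and Tnni1 and the rise of Acta1 were called with factors from miRNA and from snoRNA genes too.

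The promoters of Acta1 and Myh7 are shown because they moved in opposite directions and were, of 10 muscle genes called with a promoter in the table, the ones that held the M-CAT motif (CATTCC, either strand), which TEAD factors bind. In all, 14.7% of 32851 mouse promoters of the same 300 bases hold it, and 13.6% hold TATAAA, which overlaps no M-CAT match. These shares count each annotated start, while the 10 genes were counted with all their starts together, so the 2 are unlike measures. Sequences are from RefSeq (GRCm38.p6), 250 bases before to 50 after the annotated start, on the minus strand of chr8:123894726-123895025 and of chr14:54994577-54994876, with matches to both motifs in capitals.
Acta1: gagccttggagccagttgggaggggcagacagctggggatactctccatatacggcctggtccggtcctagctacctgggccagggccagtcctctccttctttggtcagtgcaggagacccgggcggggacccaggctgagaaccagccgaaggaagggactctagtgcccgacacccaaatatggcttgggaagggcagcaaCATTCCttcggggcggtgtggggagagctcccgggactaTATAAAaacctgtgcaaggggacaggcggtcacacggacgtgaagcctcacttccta
Myh7: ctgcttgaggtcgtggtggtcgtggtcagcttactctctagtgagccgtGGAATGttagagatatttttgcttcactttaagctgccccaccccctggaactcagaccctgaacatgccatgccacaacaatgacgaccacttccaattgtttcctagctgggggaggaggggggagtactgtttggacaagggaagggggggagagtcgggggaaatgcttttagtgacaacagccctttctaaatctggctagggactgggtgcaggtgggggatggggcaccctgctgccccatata
Counted from the annotated start, the match begins at position -46 in Acta1 and, on the opposite strand, at position -201 in Myh7. The table holds another start for Myh7, with the promoter at chr14:54994500-54994799, and that window holds neither motif. A match in these letters is not evidence of binding.

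Genes of the adult sarcomere and of its energy supply lay above 0 almost without exception. Of 29 tested, 28 had a log2 fold change above 0, with a median of 0.58 against -0.01 for all genes. Of the 29, 5 were upregulated, beside 1.4% of all genes. Xirp2, an actin-binding protein of the intercalated disc and costamere, stood at 48, 65.7, 38.6 and 42.3 in the P04 libraries and 287, 276, 212 and 309 in the P09 libraries (log2 fold change 2.47, SE 0.19, adjusted p = 7.30e-10). Ckmt2, the creatine kinase of sarcomeric mitochondria, stood at 98, 107, 68.6 and 85.6 in the P04 libraries and 400.4, 428, 411 and 416 in the P09 libraries (log2 fold change 2.2, SE 0.14, adjusted p = 1.09e-12). Both sets of 4 libraries were tight and did not overlap, with means of 89.7 ± 16.5 (SD, n = 4) to 414 ± 11.6 for Ckmt2. The other 3 were Myom2, a protein of the sarcomere M band, with a log2 fold change of 1.19, Mb, the oxygen store myoglobin, with 1.0, and Cmya5 with 0.85. Cmya5 was just past the fold change threshold, and its call was lost when P04 replicate 4 or 6 or P09 replicate 2 was left out (0.73 to 0.84). The members with the most counts had smaller fold changes. Ttn, the giant spring of the sarcomere, stood at 18669.6, 17431, 16829.8 and 17513 in the P04 libraries and 30512, 22349.8, 23858 and 22122 in the P09 libraries (log2 fold change 0.49, adjusted p = 0.0488), and Myh6, the adult myosin heavy chain that replaces Myh7, at 7164, 6694, 5981 and 6753 in the P04 libraries and 11402, 10394, 11168 and 9347 in the P09 libraries (log2 fold change 0.67, adjusted p = 0.00177). Neither reached a fold change of 1.8, although the libraries of the 2 days did not overlap for either. Over the list the libraries did not overlap, with P09 higher, for 26 of 29 genes, beside 9.36% of all genes. With factors from miRNA or snoRNA genes, 22 and 25 of the 29 were called.

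Most genes of calcium handling lay above 0. Of 17 calcium genes, 15 lay above 0 (median 0.48) and 3 were upregulated (9 with factors from miRNA or snoRNA genes), beside 1.4% of all genes. The 3 were Casq1, the fast skeletal calsequestrin that stores calcium in the sarcoplasmic reticulum, with a log2 fold change of 1.7, Hrc, a calcium-binding protein of the same store, with 0.92, and S100a1, a calcium sensor, with 0.91. Casq1 was low, at 2.08, 5.97, 6.43 and 3.76 in the P04 libraries and 12.1, 13.1, 12.5 and 24.7 in the P09 libraries, and its call was lost when P09 replicate 5 was left out (1.42), as was that of Hrc when P09 replicate 2 was left out (0.82). Atp2a2, the calcium pump of the reticulum, had a log2 fold change of 0.68 and Ryr2, its release channel, of 0.49, neither called. Among ion channel genes, Hcn4, a pacemaker channel that opens on hyperpolarisation, was downregulated, from 18 ± 6.72 (SD, n = 4) to 6.48 ± 1.67 normalized counts (log2 fold change -1.4, SE 0.28, adjusted p = 7.20e-04), a call that was lost with factors from miRNA or snoRNA genes. Hcn2 of the same family had a log2 fold change of 1.28 and was not called.

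**Figure D2:**
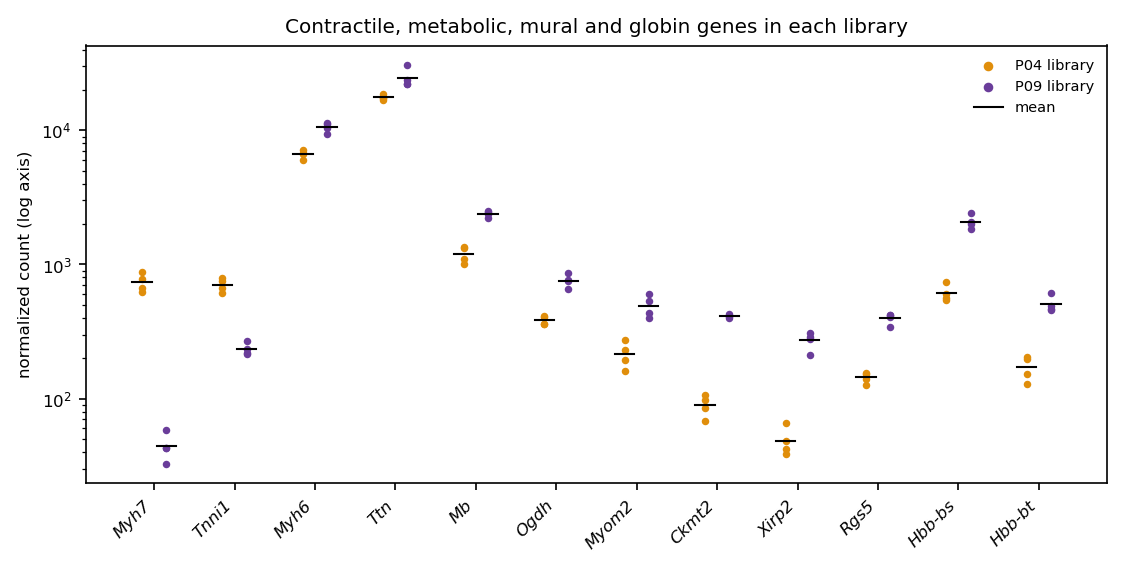
Normalized counts on a log axis of 12 genes in each P04 library (orange) and P09 library (purple), with a bar at the mean of 4. Myh7 and Tnni1 are lower in all P09 libraries, and the other 10 genes are higher in all P09 libraries than in any P04 library.

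Genes of energy metabolism lay above 0 as groups, with few single calls at the scaling over all genes. Scaled by miRNA and by snoRNA genes, 17 and 18 of 19 genes of the citric acid cycle were called higher. The same scalings called 9 and 11 of 20 genes of glycolysis and 17 and 19 of 34 of fatty acid oxidation higher. All 19 genes of the citric acid cycle and ketone use had values above 0 (median 0.54), and Ogdh, a subunit of the oxoglutarate dehydrogenase complex, was upregulated, at 411, 408, 357 and 358 in the P04 libraries and 860.3, 761, 754 and 654 in the P09 libraries (log2 fold change 0.98, SE 0.14, adjusted p = 1.04e-05). Of 20 glycolysis genes 17 lay above 0 (median 0.37) and 4 were upregulated, beside 1.4% of all genes. The 4 were Pgk1 (1.26), Gapdh (0.93), Pfkm, the muscle phosphofructokinase (0.91), and Pkm (0.88). Each of these calls was lost on leaving out a library, that of Pgk1 when P04 replicate 1, 4 or 6 or P09 replicate 3, 4 or 5 was left out (0.88 to 1.41), that of Gapdh when P04 replicate 6 was left out (0.84), that of Pfkm when P04 replicate 4 or P09 replicate 2 was left out (0.81 each time) and that of Pkm when P04 replicate 4 or P09 replicate 4 was left out (0.79 to 0.83). Of 34 genes of fatty acid oxidation 29 lay above 0 (median 0.36). Cpt1b, the muscle form of the carnitine palmitoyltransferase that lets fatty acids into mitochondria, had a log2 fold change of 0.93, and Pdk4, a kinase that restrains pyruvate oxidation, of 0.91, neither called.

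Nuclear genes of the respiratory chain stood almost all above 0, with calls that depended on the scaling. Of 35 genes of complex I, 34 were above 0 (median 0.33), and of 43 genes of complexes II to V, 42 were (median 0.35). At an unadjusted p under 0.05 edgeR gave 23 higher genes of complex I and 31 of complexes II to V, 0 of them with a fold change over 1.8, and DESeq2 called 0. Scaled by miRNA and by snoRNA genes, 16 and 19 genes of complex I and 20 and 26 of complexes II to V were called higher. Among 86 cytoplasmic ribosomal protein genes 32 lay above 0 and 54 below, with a median of -0.07 and 0 calls in edgeR and in DESeq2 (3 higher and 3 lower at an unadjusted p under 0.05). Of these 86 genes 85 lay above 0 with factors from miRNA or snoRNA genes, with medians of 0.44 and 0.45 and 3 and 2 called higher.

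Most tested mRNAs of the mitochondrial chromosome rose while its ribosomal RNAs did not pass the test. Of 13 such mRNA genes in the count table, 8 passed the filter on low counts. Of the 8 mitochondrial mRNAs tested, 6 were upregulated (8 with factors from miRNA or snoRNA genes), and for all 8 the libraries did not overlap. mt-Co1, the catalytic subunit of cytochrome oxidase, stood at 12814, 8238, 6579 and 7095 in the P04 libraries and 24772, 21389, 21269 and 17808 in the P09 libraries (log2 fold change 1.3, SE 0.23, adjusted p = 3.17e-04). mt-Nd5, a proton-pumping subunit of complex I, stood at 17326, 12179.8, 10769 and 10529 in the P04 libraries and 35926, 30437, 31566 and 26282 in the P09 libraries (log2 fold change 1.29, SE 0.20, adjusted p = 3.95e-05). P04 replicate 1 was the highest P04 library for both and still lay below the lowest P09 library. The others called were mt-Nd2 (1.15), mt-Nd3 (0.99), mt-Nd1 (0.99) and mt-Cytb (0.86), the call of the last being lost when P04 replicate 4 or 6 or P09 replicate 3 was left out (0.80 to 0.81), and the others not called were mt-Nd6 (1.02) and mt-Nd4 (0.82). As a share of all counts, mitochondrial mRNAs took 2.81%, 2.08%, 1.81% and 1.92% in the P04 libraries and 5.57%, 4.67%, 4.58% and 3.94% in the P09 libraries, a ratio of 2.18 between the means.

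Of 17 mitochondrial transfer RNAs 15 lay above 0 (median 0.36) and 2 were upregulated (7 with factors from miRNA or snoRNA genes), mt-Tr, which reads arginine codons, at 2444, 2320.1, 2134 and 1457 in the P04 libraries and 4356, 4442, 4629 and 3744 in the P09 libraries (log2 fold change 1.04, SE 0.20, adjusted p = 3.91e-04), and mt-Tc, for cysteine (0.88), whose call was lost when P04 replicate 4 or P09 replicate 3 was left out (0.71 to 0.81). mt-Te and mt-Tl2 lay at -0.46 and -0.47, not called. The ribosomal RNAs mt-Rnr1 and mt-Rnr2, which held most of the mitochondrial counts, had log2 fold changes of -0.02 (SE 0.16) and -0.13 (SE 0.16), which turn to 0.50 and 0.38 with factors from miRNA genes, without a call. Together they took 18.9% ± 1.51 (SD, n = 4) of the counts at P04 and 18.6% ± 0.516 at P09. Mitochondrial mRNA and transfer RNA thus changed against mitochondrial ribosomal RNA within the same libraries, which no scaling alters. The ratio of the mRNA share to the rRNA share did not overlap between the days.

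**Figure D3:**
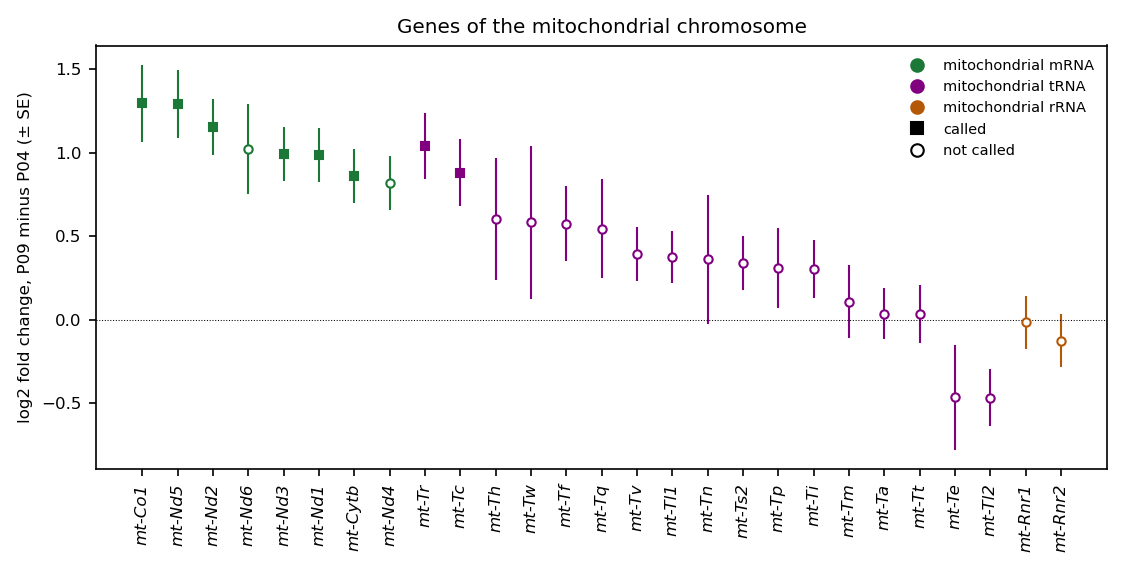
log2 fold change from P04 to P09 with its SE (vertical axis) for the 27 mitochondrial genes tested, mRNAs in green, transfer RNAs in purple and ribosomal RNAs in brown, with filled squares for genes called and open circles for genes not called. All 8 mRNAs lie at 0.82 or above, and the ribosomal RNAs lie at -0.02 and -0.13.

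Outside the cardiomyocyte, globins and a mural cell gene rose. Hbb-bs, an adult beta-globin, stood at 547, 734, 559 and 605 in the P04 libraries and 1823, 1987, 2087 and 2413 in the P09 libraries (log2 fold change 1.76, SE 0.15, adjusted p = 1.45e-09), and Hbb-bt at a log2 fold change of 1.57. Alas2, which starts heme synthesis in red cell precursors, rose by 1.31. The alpha-globins Hba-a1 (2.02) and Hba-a2 (2.17) were also called, and their calls were lost when P04 replicate 3, 4 or 6 or P09 replicate 3, 4 or 5 was left out (1.78 to 2.07) and when P04 replicate 1, 3, 4 or 6 or P09 replicate 3, 4 or 5 was left out (1.98 to 2.28). The globin pairs are near copies, so how reads were divided within a pair is uncertain. The summed level of 15 erythroid genes was 844 to 1090 normalized counts at P04 and 2533 to 3346 at P09, with the embryonic globin Hbb-bh1 at 0, and the blood left in the ventricles was not measured, so its part in these values was not tested. Rgs5, a marker of pericytes and vascular smooth muscle, stood at 141, 154, 155 and 126 in the P04 libraries and 422, 419, 404 and 345 in the P09 libraries (log2 fold change 1.47, SE 0.13, adjusted p = 2.16e-09). It was the 1 call among 11 tested markers of these cells, and the summed level of all 12 markers in the list was 1199 to 1467 at P04 and 1740 to 1942 at P09. Des, which cardiomyocytes also express, went from 342 ± 57.6 (SD, n = 4) to 534 ± 16.6 and was not called. The smooth muscle genes Acta2 (-0.39), Tagln (-0.23) and Myh11 (-0.22) and the pericyte gene Cspg4 (-0.14) lay below 0 and were not called. All 11 lay above 0 with factors from miRNA or snoRNA genes. Of 15 endothelial markers 11 lay above 0 (median 0.27) with 0 calls in edgeR and in DESeq2 (6 higher at an unadjusted p under 0.05), or 6 called higher with either of those factors. C1qa, a complement gene of macrophages, fell (log2 fold change -1.26, SE 0.22, adjusted p = 1.89e-04) as the 1 call among 8 leukocyte markers, and it was not called with factors from miRNA (-0.70) or snoRNA genes (-0.76). Other macrophage markers lay on the other side of 0 without a call, C1qb at 0.99 and Mrc1 at 0.80, both with no overlap, and Lyz2 at 0.78. Of the 8, 3 were called higher and 0 lower with factors from miRNA or snoRNA genes.

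Other protein-coding genes with large rises at a mean of 100 counts or more were Lrtm1, at 108, 117, 129 and 85.6 in the P04 libraries and 345, 419, 349 and 334 in the P09 libraries (log2 fold change 1.72, SE 0.16, adjusted p = 3.07e-09), Dmpk, the myotonic dystrophy kinase (1.33), Fblim1, an adaptor at integrin adhesions (1.32), Coq8a, which is needed to make coenzyme Q (1.25), and Hcls1, a cortactin-like protein (1.42), whose call was lost when P04 replicate 1, 3, 4 or 6 or P09 replicate 2, 3 or 4 was left out (1.32 to 1.59). Tuba8, an alpha-tubulin, was the 1 call among 15 tubulins, from 7.65 ± 2.67 (SD, n = 4) to 32.8 ± 4.08 normalized counts (log2 fold change 2.12, SE 0.24, adjusted p = 2.93e-07), while 12 of the 15 lay below 0, or 3 with factors from miRNA or snoRNA genes. Epas1, the oxygen-regulated transcription factor HIF-2 alpha, rose by 0.97 on the log2 scale, and P4ha2, a collagen prolyl hydroxylase that hypoxia induces, fell (log2 fold change -1.09, SE 0.20, adjusted p = 2.39e-04), the 2 calls among 17 hypoxia genes, which became 8 higher and 0 lower with factors from miRNA genes and 9 and 0 with those from snoRNA genes.

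Large falls at a mean of 100 counts or more were also seen outside the muscle lists. Pappa, a protease that frees IGF from its binding proteins, stood at 180.3, 218, 293 and 220.2 in the P04 libraries and 54, 42.2, 45.4 and 50.2 in the P09 libraries (log2 fold change -2.24, SE 0.16, adjusted p = 2.25e-11). Lars2, the mitochondrial leucyl-tRNA synthetase, stood at 10294, 11546, 7697 and 8638 in the P04 libraries and 1782, 2180.4, 2411 and 2929 in the P09 libraries (log2 fold change -2.04, SE 0.19, adjusted p = 6.52e-09). Both fell by more than 4-fold without overlap. Itsn1, a scaffold of endocytosis, stood at 1131, 883, 1647 and 1177 in the P04 libraries and 322, 385, 336 and 334 in the P09 libraries (log2 fold change -1.81, SE 0.17, adjusted p = 6.52e-09). Tbr1, a transcription factor of cortical neurons, had a log2 fold change of -1.85, Cadps2, a regulator of vesicle release, of -1.76, and Smo, the transducer of Hedgehog signals, of -1.8. Lemd2, a protein of the inner nuclear membrane, had -2.81, for which P09 replicate 4 held 69.2 counts against 16.5 to 19.7 in its group, and Midn -2.17, with 172, 273, 745 and 628 in the P04 libraries and 104, 98.4, 102 and 97.8 in the P09 libraries. The calls of these last 2 were lost, that of Lemd2 when P09 replicate 2, 3 or 5 was left out (-2.66 to -2.58) and that of Midn when P04 replicate 6 or P09 replicate 2, 3, 4 or 5 was left out (-2.18 to -1.97). Tesmin, a gene known from the testis, stood at 8854, 7514, 15099 and 10079 in the P04 libraries and 3185, 5908, 5519 and 3437 in the P09 libraries (log2 fold change -1.2, SE 0.28, adjusted p = 0.00704), and its call was lost when P04 replicate 1, 4 or 6 or P09 replicate 2 or 5 was left out (-1.26 to -0.96). Whether the reads on these genes are fragments of their mRNAs was not tested.

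Several genes of fetal growth fell. Of 24 genes of imprinted growth control 19 lay below 0 (median -0.59) and 6 were downregulated, beside 3.71% of all genes, with 0 upregulated. With factors from miRNA or snoRNA genes, however, the list split into 12 above and 12 below 0 and 1 (Dlk1) was called. H19, the imprinted lncRNA next to Igf2 (chromosome 7, 142575530 to 142578146, GRCm38.p6), stood at 351, 325, 325 and 343 in the P04 libraries and 96.5, 156, 134 and 159 in the P09 libraries (log2 fold change -1.31, SE 0.15, adjusted p = 3.43e-07). Dlk1, a Notch-like protein of growing tissues, stood at 45.9, 34.1, 31.1 and 43.3 in the P04 libraries and 10.5, 4.68, 6.59 and 7.93 in the P09 libraries (log2 fold change -2.31, SE 0.25, adjusted p = 6.82e-08). Igf2, the fetal growth factor, went from 24.3 ± 2.74 (SD, n = 4) to 11.3 ± 4.17 normalized counts (log2 fold change -1.04), a call lost when P04 replicate 1, 3, 4 or 6 or P09 replicate 3 or 5 was left out (-1.09 to -0.86). Also called were Plagl1, a transcription factor over an imprinted network (-0.93), the noncoding Airn at Igf2r (-0.95) and Cdkn1c, an inhibitor of cyclin-dependent kinases (-0.92), and the call of the last was lost when P04 replicate 3, 4 or 6 or P09 replicate 2, 3, 4 or 5 was left out (-0.98 to -0.79), that of Plagl1 when P04 replicate 1 or P09 replicate 3 was left out (-0.85 to -0.83) and that of Airn when P04 replicate 1 or P09 replicate 2 was left out (-0.80 to -0.78). Neither Grb10 (-0.32), Mest (-0.27) nor Gnas (0.04) was called.

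All 10 tested genes of an oncofetal list lay below 0 (8 of 10 with factors from miRNA or snoRNA genes), and 4 were downregulated, beside 3.71% of all genes. None of the 4 was called with those factors. They were Igf2bp1 (-1.61) and Igf2bp3 (-0.98), which bind and stabilise fetal mRNAs, Lin28b, which blocks the maturation of let-7 (-1.55), and Tead2, a partner of YAP (-1.31). These were low genes, at 13.5 to 38.4 normalized counts at P04, and the calls of 3 were lost, that of Igf2bp1 when P09 replicate 2 was left out (-1.46), that of Igf2bp3 when P04 replicate 6 or P09 replicate 2 or 4 was left out (-0.93 to -0.90) and that of Lin28b when P04 replicate 3 or 4 or P09 replicate 2 or 4 was left out (-1.55 to -1.38). Of 28 DNA replication genes 26 lay below 0 (median -0.35), but with factors from miRNA or snoRNA genes 7 and 4 did. Of the 28, 2 were downregulated, beside 3.71% of all genes. The 2 called were Fen1, the flap endonuclease of lagging strand synthesis (log2 fold change -1.02, SE 0.24, adjusted p = 0.00336), and E2f1, a transcription factor of S phase (log2 fold change -0.87, SE 0.22, adjusted p = 0.00586), and these calls were lost when P04 replicate 3 or P09 replicate 2 or 4 was left out (-0.99 to -0.81) and when P04 replicate 1 or 4 or P09 replicate 2, 3, 4 or 5 was left out (-0.95 to -0.70). Of 41 mitosis genes 34 lay below 0 (5 with the other factors) with 0 called in edgeR and in DESeq2, and 8 lower at an unadjusted p under 0.05.

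Among lncRNAs, falls outnumbered rises 33 to 2 of 198 tested, or 10 to 11 and 9 to 10 with factors from miRNA and snoRNA genes, and 21 fell without P04 replicate 4 or without P09 replicate 2. Neat1, the scaffold of nuclear paraspeckles (chromosome 19, 5824708 to 5845480), rose, at 114, 87.9, 105 and 62.1 in the P04 libraries and 213, 206, 195 and 171 in the P09 libraries (log2 fold change 1.09, SE 0.16, adjusted p = 1.04e-05). Its neighbour on the chromosome, Malat1 of nuclear speckles, stood at 8904, 8217, 8559 and 9454 in the P04 libraries and 6709, 6284, 6304 and 6051 in the P09 libraries (log2 fold change -0.47, adjusted p = 0.0265), a value that turns to 0.04 and 0.07 with factors from miRNA and snoRNA genes. The other rise was that of Gm5532, named after its values were seen, with 0 to 2.56 normalized counts at P04 and 7.5 to 14.3 at P09. Gm15564 (chromosome 16, 35966751 to 35983329, within Kpna1 and Parp9) stood at 2367, 2606, 1743 and 1919.6 in the P04 libraries and 374, 553, 547 and 681 in the P09 libraries (log2 fold change -2.0, SE 0.19, adjusted p = 5.49e-09), and Gm27151, within Trpm3, at 94.9, 104, 217 and 122 in the P04 libraries and 14.3, 26.2, 25 and 20.3 in the P09 libraries (log2 fold change -2.66, SE 0.26, adjusted p = 1.22e-06). Hand2os1, the divergent partner of the heart transcription factor gene Hand2, fell (log2 fold change -0.91, SE 0.14, adjusted p = 4.86e-05), a call lost when P04 replicate 1 was left out (-0.84), as did Miat (-1.25), lost when P04 replicate 4 was left out (-0.93), and B330016D10Rik (-0.90), lost when P04 replicate 4 or P09 replicate 2 or 5 was left out (-0.85 to -0.67). Most of the 33 were low genes, 20 of them with a mean under 30 counts on both days. Among 23 regulatory lncRNAs 1 rose and 3 fell, or 4 and 0 with factors from miRNA or snoRNA genes, and Meg3 (log2 fold change -0.68) and Rian (-0.69) did not reach the fold change threshold.

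The lncRNA gene with the most counts did not separate the days. 4930583K01Rik, which lies in Smg1, ranged from 0.297% to 1.43% of the counts in the P04 libraries and from 0.278% to 1.34% in the P09 libraries (log2 fold change -0.73, SE 1.56, adjusted p = 0.827), so the libraries of each day spread widely. 1110038B12Rik, which hosts Snord52, took 0.347% to 0.422% at P04 and 0.200% to 0.269% at P09 (log2 fold change -0.71, adjusted p = 0.00530, below the fold change threshold), and reads of the snoRNA and its host cannot be told apart here.

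snoRNAs moved little from one another. Of 165 tested, 158 had a log2 fold change below 0 and 7 above, in a range of -1.43 to 0.39, and 79 lay below 0 with factors from miRNA genes. Of 43 named C/D snoRNAs 41 were below 0 (median -0.45), and of 17 named H/ACA snoRNAs 17 were (median -0.55), with 0 called in either group by edgeR or DESeq2 and 26 and 5 lower at an unadjusted p under 0.05. With factors from miRNA genes these medians were 0.07 and -0.05. Snord49a, the second in counts, stood at 25683, 30974, 25601 and 28557 in the P04 libraries and 15477, 20383, 18409 and 23669.9 in the P09 libraries (log2 fold change -0.51, SE 0.17, adjusted p = 0.0364), and Snord37, the first on both days, at a log2 fold change of -0.23, adjusted p = 0.415. Of 20 tested host genes of snoRNAs 18 lay below 0 with a median of -0.31 (5 of 20 with factors from miRNA genes), and 0 were called by either tool, with 6 lower at an unadjusted p under 0.05.

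Of the 4 snoRNA genes called lower, 3 lay in 1 region. Gm23787 (chromosome 12, 109684962 to 109685034, GRCm38.p6) was at 489, 572, 632 and 584 in the P04 libraries and 270.2, 271, 279.9 and 305 in the P09 libraries (log2 fold change -1.02, SE 0.14, adjusted p = 4.27e-06), Gm22981 (chromosome 12, 109682384 to 109682457) at 108, 151, 111 and 151 in the P04 libraries and 41.4, 57.2, 58 and 74 in the P09 libraries (log2 fold change -1.19, SE 0.17, adjusted p = 1.38e-05) and Gm25854 (chromosome 12, 109686798 to 109686869) at 89.7, 108, 121 and 96 in the P04 libraries and 45.2, 55.3, 60.6 and 63.5 in the P09 libraries (log2 fold change -0.89, SE 0.16, adjusted p = 2.27e-04), a call lost when P04 replicate 4 or P09 replicate 2 was left out (-0.81 to -0.79). All 3 lie on chromosome 12 between Mir370 and Mir323 of the imprinted Dlk1 to Dio3 region. The other 3 snoRNA genes tested in that region, named after their values were seen, were not called. DQ267102 had a log2 fold change of -0.84, AF357341 of -0.64 and Gm23736, which begins at 109680800 on the same chromosome, of 0.39, the highest of all 165 snoRNA genes. Gm23136 on chromosome 9, within Rpl4 and named after its values were seen, was the fourth, from 46.3 ± 7.66 (SD, n = 4) to 22.3 ± 3.24 normalized counts (-1.07). With factors from miRNA or snoRNA genes none of the 4 was called.

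The other small RNAs gave 2 rises (1.57%) and 3 falls (2.36%) of 127, near the 1.4% and 3.71% of all genes. Rny3 and Rny1 make Y RNAs, partners of the Ro60 protein. Rny3 stood at 11883, 12612, 13118 and 12477 in the P04 libraries and 26206, 22996, 25157 and 28447 in the P09 libraries (log2 fold change 1.04, SE 0.17, adjusted p = 9.45e-05), with no overlap. Rny1 stood at 5943, 5972, 6041 and 5270.4 in the P04 libraries and 9504, 9658, 10658 and 11152 in the P09 libraries (log2 fold change 0.82, SE 0.15, adjusted p = 3.61e-04), a fold change of 1.76 that fell short of the threshold. Vaultrc5, the RNA of the vault particle, also rose, at 1305, 1089, 1036 and 1033 in the P04 libraries and 2395, 1927, 2587 and 2203 in the P09 libraries (log2 fold change 1.03, SE 0.15, adjusted p = 1.78e-05). By contrast Rn7sk, which holds back the elongation factor P-TEFb, went from 17487 ± 2833 (SD, n = 4) to 17024 ± 2209 (log2 fold change -0.04, adjusted p = 0.921), and that sign turned in 7 of the alternatives run. As a share of counts, the other small RNAs took 1.36% to 1.62% at P04 and 1.88% to 2.05% at P09 without overlap. The falls were those of Gm26316 (-0.96) and, named after their values were seen, Gm23540 (-2.03) and Gm25587 (-1.31), and these calls were lost in turn when P09 replicate 2 was left out (-0.80), when P04 replicate 3, 4 or 6 or P09 replicate 2, 3 or 5 was left out (-2.0 to -1.88) and when P04 replicate 1, 3 or 4 or P09 replicate 2, 3 or 5 was left out (-1.37 to -0.97). In addition, 2 genes of 5S rRNA, n-R5s89 and n-R5s37, were downregulated among 48 nuclear rRNA genes (4.17%, near the 3.71% of all genes).

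Among miRNAs 40 of 206 fell (median of all -0.56, or -0.01 with factors from miRNA genes), or 28 without P04 replicate 4, and 12 of the 63 with a mean of at least 300 normalized counts did. By place, 15 of the falls were on chromosome 12 (of 40 tested there) and 11 on the X chromosome (of 28), with 14 among the 138 elsewhere. On chromosome 12 the region from Dlk1 to Dio3 (109452485 to 110281097, GRCm38.p6), bounded after its values were seen, held 47 tested genes, 46 of them below 0 and 18 called lower. They comprised 14 of 35 miRNA genes, 3 of 6 snoRNA genes and 1 of 3 protein-coding genes (Dlk1), while the 3 lncRNA genes were below 0 and not called. The miRNA genes there lay between -1.51 and -0.14 with a median of -0.87, against -0.56 for all miRNA genes. With factors from miRNA genes the median there was -0.33, with 32 of 35 below 0, and 1 (Mir487b) was called. The largest falls were those of Mir487b (log2 fold change -1.51, SE 0.28, adjusted p = 6.41e-04) and Mir431 (log2 fold change -1.48, SE 0.26, adjusted p = 1.50e-04), and the most abundant member called was Mir127 (-0.97), whose call was lost when P04 replicate 3, 4 or 6 or P09 replicate 2, 3, 4 or 5 was left out (-1.01 to -0.75).

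On the X chromosome the cluster of Mir322 and Mir503, which restrains the cell cycle in several tissues, had all 6 tested members below 0 at every scaling and 5 called (Mir351 and Mir450b also with factors from miRNA or snoRNA genes). Mir351 (chromosome X, 53053255 to 53053353, in C430049B03Rik) stood at 2585, 2761, 3688 and 3495 in the P04 libraries and 1230.3, 1085, 1289 and 1029 in the P09 libraries (log2 fold change -1.43, SE 0.18, adjusted p = 1.11e-06). Mir322 stood at 3925, 3881, 5875 and 4761 in the P04 libraries and 3014, 2738, 2424 and 3050.2 in the P09 libraries (log2 fold change -0.72, SE 0.18, adjusted p = 0.00686), without overlap and below the fold change threshold. The others were Mir450b (-1.53), Mir503 (-1.36), Mir542 (-1.34) and Mir450-1 (-1.36), the last lost when P04 replicate 4 or P09 replicate 4 was left out (-1.25 to -1.24), and the host C430049B03Rik had -0.71 and was not called. miR-322-5p and miR-195a-5p carry the seed AGCAGCA shown above, and their genes had log2 fold changes of opposite sign, with Mir195a at 11.5, 17.1, 27.9 and 16.9 in the P04 libraries and 48.5, 28.1, 36.2 and 23.8 in the P09 libraries (log2 fold change 0.94, adjusted p = 0.00998). The libraries overlapped for Mir195a and its call was lost when P04 replicate 1, 3 or 6 or P09 replicate 2, 3 or 4 was left out (0.71 to 1.01). Within Clcn5 on the same chromosome, 4 of 5 miRNAs named after their values were seen fell, Mir188 (-1.56), Mir501 (-1.45), Mir362 (-1.24) and Mir500 (-1.15), while Mir532 had -0.66, all 5 staying below 0 with the other factors, under which 2 (Mir188 and Mir501, miRNA factors) and 0 (snoRNA factors) were called. The call of Mir500, which shares the seed AUGCACC with Mir501, was lost when P04 replicate 4 or 6 or P09 replicate 2, 3, 4 or 5 was left out (-1.24 to -0.97). P04 replicates 4 and 6, the libraries with Xist, were the highest P04 libraries for Mir351, and P09 replicate 3 did not stand above the other P09 libraries. P04 replicates 4 and 6 were also the highest P04 libraries for Mir130b on chromosome 16. They had the largest miRNA shares of counts at P04 (4.54% and 3.58%). The part of sex in the X-linked values was not tested. Mir222, the other miRNA called higher, is X-linked too and stood at 19.8, 29, 42.9 and 29.2 in the P04 libraries and 59, 66.5, 58.6 and 78.4 in the P09 libraries (log2 fold change 1.11, SE 0.24, adjusted p = 0.00272), a call lost when P04 replicate 3 or 6 or P09 replicate 3 or 5 was left out (1.02 to 1.1).

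Several miRNAs could be set beside the gene they lie in. Mir208b, which lies within Myh7 (chromosome 14, 54975700 to 54975776), stood at 46.9, 68.3, 104 and 79 in the P04 libraries and 25.4, 16.9, 17.1 and 27.3 in the P09 libraries (log2 fold change -1.77, SE 0.22, adjusted p = 2.53e-06), a smaller fall than the -4.05 of its host. Mir208a, in Myh6, has the same seed and stood at 509, 631, 1011 and 570.2 in the P04 libraries and 809, 748, 663 and 762 in the P09 libraries, a log2 fold change of 0.13 with adjusted p = 0.718. Mir335 lies in Mest and was downregulated, at 5345, 4631, 7365 and 4585 in the P04 libraries and 2937, 2228, 2366 and 2930.3 in the P09 libraries (log2 fold change -1.07, SE 0.23, adjusted p = 0.00201), while Mest, named after its values were seen, stood at 188, 220.1, 185 and 205 in the P04 libraries and 138, 188, 144 and 196 in the P09 libraries (log2 fold change -0.27, SE 0.14, adjusted p = 0.224), with overlap. That call for Mir335 did not hold when P04 replicate 4 or P09 replicate 3 or 4 was left out (-1.02 to -0.89). Mir483 lies in Igf2 and stood at 870.5, 629.7, 829.6 and 1051 in the P04 libraries and 494, 370.1, 451 and 371 in the P09 libraries (log2 fold change -1.0, SE 0.18, adjusted p = 2.27e-04), beside -1.04 for its host. Mir130b, which overlaps the gene 2610318N02Rik, stood at 558, 607, 1059 and 787 in the P04 libraries and 336, 261, 312 and 315 in the P09 libraries (log2 fold change -1.3, SE 0.17, adjusted p = 5.69e-06), and its seed-mate Mir130a, at 2371, 2260.4, 3915 and 3281 in the P04 libraries and 2536, 2208, 2222 and 2300.2 in the P09 libraries, had a log2 fold change of -0.35 and was not called. Mir301b, next to Mir130b, fell by a log2 fold change of -1.42. Of 8 tested genes of a let-7 list 7 lay below 0 (median -0.40, turning to 0.15 with factors from miRNA genes) and 0 were called by edgeR or DESeq2 (5 lower at an unadjusted p under 0.05), Mirlet7g standing at 12211, 11811, 20835 and 15937 in the P04 libraries and 11224, 10361, 8749 and 10982 in the P09 libraries. Mir7k, the gene of let-7k, was not in that list and was downregulated. It went from 390 ± 120 (SD, n = 4) to 207 ± 40.0 normalized counts (log2 fold change -0.91, SE 0.16, adjusted p = 2.12e-04). Its call was lost when P04 replicate 4 or P09 replicate 3 was left out (-0.79 to -0.67). At a mean of 100 counts or more, the largest falls at other loci were those of Mir6240 (-2.09) and, in Dner, Mir5126 (-1.4). Whether the reads on these genes come from miRNAs or from other RNA of like sequence was not tested.

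**Figure D4:**
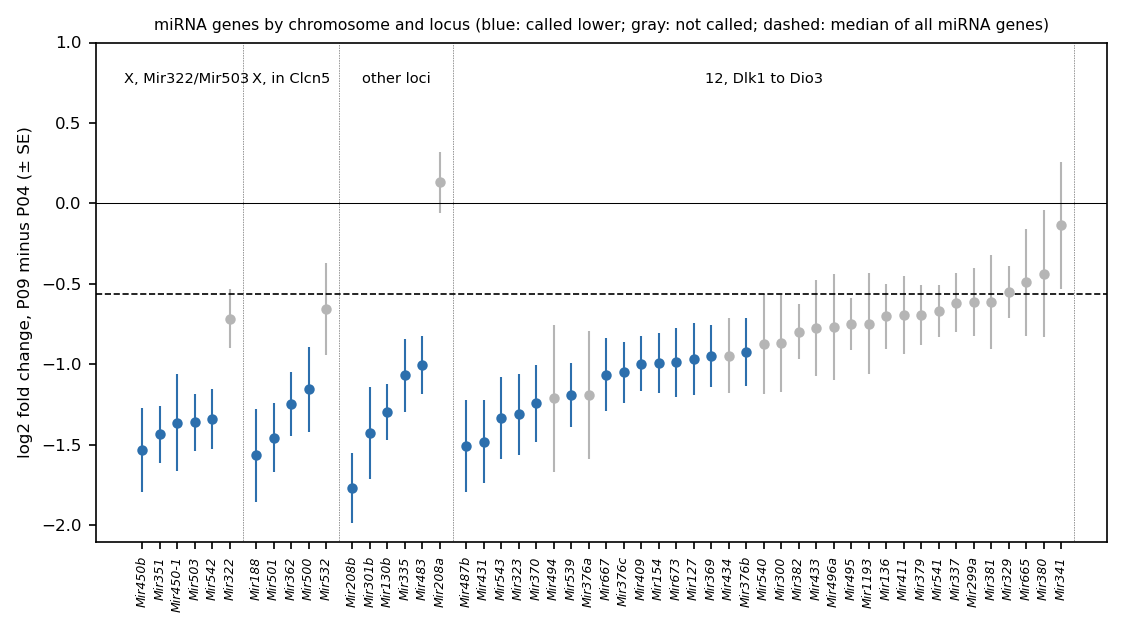
log2 fold change from P04 to P09 with its SE (vertical axis) of miRNA genes in 2 groups on chromosome X (the Mir322 and Mir503 cluster and those within Clcn5), of 6 genes at other loci and of the 35 genes between Dlk1 and Dio3 on chromosome 12, in blue where called lower and gray where not called, with a dashed line at the median of all miRNA genes, -0.56. The rest of the 28 X-linked miRNA genes tested, among them Mir222 (1.11), are not shown. Mir208a is the only gene shown above 0, and Mir208b lies at -1.77.

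Set beside the neighbouring days, the levels of these genes placed the P09–P04 step in the whole series. The days share libraries between such steps, so only the means are given. Myh7 had 3613, 736, 44.2 and 19.9 mean normalized counts at P01, P04, P09 and P23, in this order for each gene, so that most of its fall in counts came before P04, while Tnni1 had 875, 705, 233 and 0.707. Xirp2 had 16.4, 48.6, 271 and 626, Ckmt2 106, 89.7, 414 and 1233 and Mb 737, 1192, 2387 and 4195, each highest at P23. Acta1 (27.1, 73.5, 147 and 119) and Myom2 (148, 215, 491 and 380.0) were highest at P09. H19 had 814, 336, 136 and 27.8, Mir351 7009.8, 3132, 1158 and 352 and Gm23787 779.8, 569, 281 and 97.1, lower at each later day. Lars2 had 12266, 9544, 2325 and 619. Rny3 had 11575, 12523, 25701 and 19402, with its highest mean at P09, and mt-Co1 had 5600.4, 8682, 21309.7 and 29987.

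**Figure D5:**
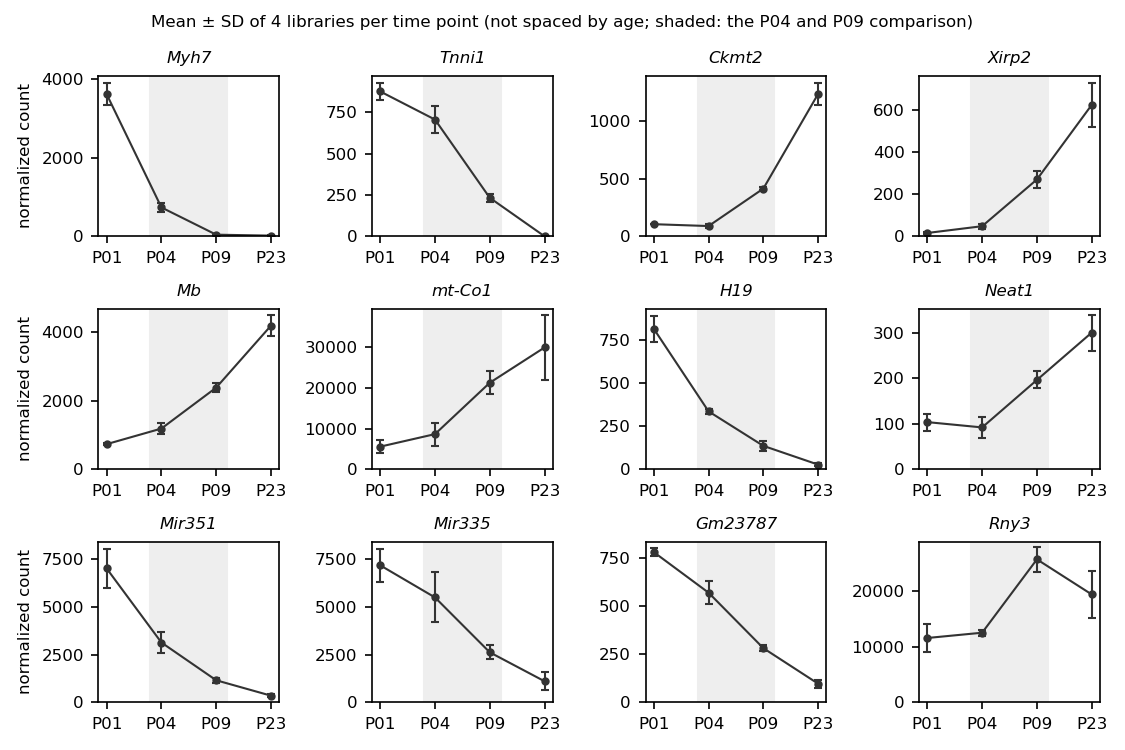
Mean normalized count with its SD over 4 libraries (vertical axes, each from 0) at P01, P04, P09 and P23 for 12 genes, with the compared days shaded and the days not spaced by age. Myh7 and H19 fall from P01 onward, Ckmt2, Xirp2 and Neat1 rise from P04 to P23, and Rny3 is highest at P09, with a mean of 25701.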

How the data were processed

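Small RNA libraries were made from total RNA of the ventricles of single hearts with a kit that tails RNA 3' ends (SMARTer smRNA-Seq). The authors used bcl2fastq, Trimmomatic, STAR (GRCm38.p6) and featureCounts in turn, and deposited 1 table of raw counts for 53801 genes. The sources used here give neither tool versions nor the settings for strand and multimapped reads. Of its columns, 16 were used and 1 column of per-sample values that matches no sample was not. Columns were matched to groups by the day in their names. Nothing in the labels pairs libraries of the 2 days, and each library came from 1 animal.

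The 16 libraries were fitted together in edgeR 4.0.16 (R 4.3.3) with TMM factors, its robust quasi-likelihood test and filterByExpr (minimum count 10, total 15). A call required an adjusted p under 0.01 (Benjamini-Hochberg over 10742 genes) and a fold change over 1.8. Normalized counts are counts divided by relative effective library size, and an SE is the log2 fold change over the square root of F. Shares of counts were compared by a two-sided exact permutation test (70 assignments). The edgeR p-values set a difference of means against a spread estimated from all 16 libraries, those of P01 and P23 included. Litters of the pups are not named in the sources used here. The code was tested on simulated data. Alternatives were DESeq2 1.42.0, RLE factors, other filters, factors from parts of the genes, thinned libraries, a replicate block and the omission of each library.

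Symbols were matched to RefSeq (37793 by symbol, 578 by synonym), which gave RNA classes, positions and sequences. The text names, per class, the largest called rises and falls with a mean of at least 100 normalized counts and no overlap (10 each for protein-coding genes, 5 each for others), called members of the gene lists with the most abundant others, and the 5 genes with the most counts. These members and lists were chosen with earlier results of these data known. Some genes that meet this rule are not reported here.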

Additional observations from a re-analysis of the deposited data

Results flagged for a closer look

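Of 314 groups of 4 libraries looked at (class shares and named genes on each day), 18 held 1 library far from the other 3 by Dixon's ratio. Chance gives about 1 in 20 groups. P04 replicate 4 stood apart in 4 of the 18 and P09 replicate 3 in 5.

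Among shares of counts, nuclear rRNA took 37.4% in P04 replicate 1 (40.3% to 40.8% in the others), mitochondrial transfer RNA 2.16% in P04 replicate 6 (2.48% to 2.53%) and other small RNA 1.88% in P09 replicate 3 (2.04% to 2.05%).

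In P04 replicate 4, the normalized count of Mir543 was 51.4 (24.5 to 27.3 in the others), that of n-R5s89 66.5 (42.7 to 44.4), that of Ccdc33 22300 (11500 to 13300) and that of Hba-a2 6.43 (14.1 to 15.4). In P04 replicate 6, Rny1 stood at 5270 (5940 to 6040).

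In P09 replicate 3, Mir431 stood at 14.1 (10.5 to 10.6 in the others), Mir501 at 31.9 (49.6 to 52.7), Mir127 at 68.4 (90.9 to 95.2) and mt-Nd2 at 31400 (24900 to 25300). Mir542 was at 288 in P09 replicate 2 (239 to 246). In P09 replicate 4, Mir378a was at 7480 (6450 to 6570), Gm23540 at 2.63 (0.881 to 1.1) and Lemd2 at 69.2 (16.5 to 19.7). In P09 replicate 5, Pgk1 was at 38.8 (14.3 to 18.4) and Casq1 at 24.7 (12.1 to 13.1).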

How the results depend on the processing

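The zero point was the choice that moved most. Factors from miRNA genes, then from snoRNA genes, gave 1204 and 1156 rises and 105 and 89 falls over all genes, with 1144 and 1104 rises and 76 and 64 falls for protein-coding genes, 11 and 10 rises and 10 and 9 falls for lncRNA genes, 10 and 7 rises and 8 and 6 falls for miRNA genes, 15 and 15 rises for mitochondrial genes, 1 snoRNA rise (miRNA factors) and 0 snoRNA falls under both. Log2 fold changes that turned positive under both were those of Malat1 (0.04, 0.07), Dancr (0.03, 0.03), Mest (0.25, 0.24), Mir23a (0.31, 0.22), Mir378a (0.51, 0.43), Mirlet7f-1 (0.18, 0.16), Rn7sk (0.45, 0.49), Snord34 (0.07, 0.04), Snord37 (0.29, 0.27), Snord72 (0.07, 0.07), Snord82 (0.05, 0.03), mt-Rnr1 (0.50, 0.50) and mt-Rnr2 (0.38, 0.40). Mirlet7g and Snord49a (0.01 each) turned with miRNA factors. Of 148 genes under the naming rule 58 and 61 lost a call, against 7 with DESeq2 and 22 with libraries thinned to the shallowest total.

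With a minimum count of 50, which tests fewer genes, 84 genes rose and 205 fell (protein-coding 70 and 140, lncRNA 1 and 10, miRNA 1 rise). With no filter 246 rose (protein-coding 204, lncRNA 6, miRNA 5), and Mir378a (0.02), Rn7sk (0.03) and mt-Rnr1 (0.06) turned. Thinning left 19 lncRNA falls. The 2 lncRNA rises became 1 in a fit of the 8 libraries. The 2 miRNA rises became 1 with DESeq2, RLE factors, thinning or factors without mitochondrial and rRNA genes, and 4 at an adjusted p under 0.05, where snoRNA falls were 8. At a mean of at least 300 counts there were 0 miRNA rises and 12 falls. The cause of these changes was not tested.

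The numbers 3 and 4 are shared by the days, and same-numbered libraries did not deviate together (correlations of -0.012 and 0.003). Libraries of unlike number ran from -0.121 to 0.158. So few pairs cannot decide whether the numbers pair libraries. A replicate block gave 149 rises and 403 falls over all genes, 69 miRNA falls and 0 miRNA rises, and turned Rn7sk (0.11) and mt-Rnr1 (0.05).

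Leaving out 1 library at a time gave 116 to 170 rises and 259 to 403 falls over all genes, 98 to 150 and 176 to 282 for protein-coding genes, 2 to 3 and 21 to 30 for lncRNA genes, 0 to 3 and 28 to 46 for miRNA genes, 3 to 8 snoRNA falls and 6 to 9 mitochondrial rises. The ratio of shares ran from 0.983 to 1.03 for nuclear rRNA (0.983, 0.986 and 0.993 without P04 replicate 1, P09 replicate 3 and P09 replicate 5) and from 0.998 (without P09 replicate 2) to 1.08 for protein-coding genes. Rn7sk ranged from -0.13 to 0.06 (above 0 without P04 replicates 1 or 3 or P09 replicate 2), mt-Rnr1 from -0.09 to 0.06 (above 0 without P04 replicates 1 or 3 or P09 replicates 2 or 4), Mir378a from -0.17 to 0.12 (above 0 without P04 replicate 4) and mt-Tm from -0.06 to 0.25 (below 0 without P09 replicate 5). Of the 122 called under the naming rule, 74 were called in all 8 such fits.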
